A study of Mus musculus with 12 samples.

Results

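The metallothioneins Mt1 and Mt2, their metal-sensing regulator Mtf1 and the zinc transporters Slc30a1, Slc39a6, Slc39a10 and Slc39a14 were followed in H9c2 cells exposed to doxorubicin. These 7 of the 54345 genes in the deposited expression table were taken by gene name, and all 7 were above 0 in enough libraries to be tested; the only value at 0 was that of Slc30a1 in DOX replicate 2. H9c2(2-1) is a clonal cell line that came from embryonic rat heart, and the labels give the cells as wild-type myoblasts. There were 4 groups of 3 libraries, all collected after 6 h: untreated cells (Unt), cells given the anthracycline doxorubicin (DOX), cells given DOX with the clinical cardioprotectant dexrazoxane (D_DXZ), and cells given DOX with magnesium hexacyanoferrate nanocatalysts (D_MgHCF). Every group except Unt therefore received DOX, and dexrazoxane or MgHCF without DOX was not analysed here. The doses in the sequenced cells are not given in the sources used here. Nothing says that the 3 libraries of a group came from separate cultures, so that p-values measure only the spread between these libraries, which may be technical.

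Metallothioneins are small proteins rich in cysteine that bind zinc and copper, and their genes are known to be switched on when free zinc in the cell rises. The transcription factor MTF-1, the product of Mtf1, binds zinc and then attaches to short metal response elements near the start of Mt1, Mt2 and Slc30a1. Slc30a1 (ZnT1) carries zinc out of the cell, whereas Slc39a6 (ZIP6), Slc39a10 (ZIP10) and Slc39a14 (ZIP14) carry it into the cytosol. ZIP14 also transports iron that is not bound to transferrin, and in heart muscle metallothioneins are known as scavengers of reactive oxygen species.

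The table holds FPKM (fragments per kilobase, here with a scaling between libraries), so that levels are per length. Within a library the product of FPKM and length rises in equal steps of 1 read, from which the reads behind each value were recovered. They summed to between 16626514 and 19365119 per library. The reads were aligned to the mouse genome although the cells are described as rat, and how this affected the level of each gene was not tested. The markers of the labelled cell type were low: Myod1, Myf5 and Myog were at 0.126 FPKM or less in every library, and the sum of 6 myoblast markers lay between 0.356 and 2.46 FPKM, whereas 5 fibroblast markers summed to 22.0 to 122. In Unt that fibroblast sum lay between 45.1 and 51.1, in DOX between 97.4 and 122, in D_DXZ between 76.7 and 103.3, and in D_MgHCF between 22.0 and 39.6. The 7 cardiomyocyte markers summed to at most 1.02 FPKM and the 3 endothelial markers to at most 0.989, while the 3 macrophage markers summed to 0.888 to 1.11 in Unt and 1.98 to 4.79 in the other groups. A mean of at least 1 FPKM in any group was reached by 1 of the 6 myoblast, 2 of the 5 fibroblast and 1 of the 3 macrophage markers. None of the cardiomyocyte or endothelial markers reached it. The sums therefore rest on few genes and do not name a cell type. The part of other cell types in the results was not tested. The FPKM of all genes summed to 216899 to 230292 in Unt and 220276 to 290996 in D_MgHCF, but to 498756 to 627769 in DOX and 447052 to 549680 in D_DXZ, so that a change depended on how libraries were scaled. Mitochondrial genes held between 1.19% and 1.41% of the reads in Unt, 2.73% and 2.89% in DOX, 2.73% and 3.27% in D_DXZ, and 3.16%, 2.90% and 1.76% in D_MgHCF replicates 1 to 3. The gene Gm23935 alone held between 2.94% and 3.12% of the summed FPKM in Unt, 7.93% and 10.8% in DOX, 11.8% and 13.5% in D_DXZ, and 2.83% and 7.15% in D_MgHCF. Both shares were higher in all DOX and D_DXZ libraries than in Unt, and the mitochondrial share was also higher in all 3 D_MgHCF libraries. The part of both shares in the results was not tested. Fewer cells and less RNA per cell cannot be told apart in such libraries.

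The start regions of the genes are given first, since they carry the letters that MTF-1 is known to bind. Of the 7 genes, 5 matched the RefSeq promoter table (GRCm38.p6, 250 bases before to 50 after each start): Mt1, Mt2, Mtf1, Slc30a1 and Slc39a10. They were searched on both strands for the core of the metal response element, TGCACNC or TGCGCNC, which differ at 1 base and so cannot overlap as the same match. The windows of Mt1, Mt2 and Slc30a1 that hold it are shown 5′ to 3′ along the gene, with the matches in capitals; a match on the other strand appears as its reverse complement. The windows are chr8:94178839-94179138 (+) for Mt1, chr8:94172368-94172667 (+) for Mt2 and chr1:191906531-191906830 (+) for Slc30a1.
Mt1: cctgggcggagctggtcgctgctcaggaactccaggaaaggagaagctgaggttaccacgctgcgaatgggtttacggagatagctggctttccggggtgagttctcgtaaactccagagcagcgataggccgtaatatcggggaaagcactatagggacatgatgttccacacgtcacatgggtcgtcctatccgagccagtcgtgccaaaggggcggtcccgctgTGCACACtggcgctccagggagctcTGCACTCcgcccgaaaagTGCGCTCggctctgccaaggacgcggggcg
Mt2: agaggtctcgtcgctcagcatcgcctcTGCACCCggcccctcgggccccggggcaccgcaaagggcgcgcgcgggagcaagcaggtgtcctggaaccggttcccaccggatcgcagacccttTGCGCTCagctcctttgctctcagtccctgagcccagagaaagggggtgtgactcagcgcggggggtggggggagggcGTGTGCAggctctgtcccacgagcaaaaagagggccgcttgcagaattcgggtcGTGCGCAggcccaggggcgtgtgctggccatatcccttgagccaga
Slc30a1: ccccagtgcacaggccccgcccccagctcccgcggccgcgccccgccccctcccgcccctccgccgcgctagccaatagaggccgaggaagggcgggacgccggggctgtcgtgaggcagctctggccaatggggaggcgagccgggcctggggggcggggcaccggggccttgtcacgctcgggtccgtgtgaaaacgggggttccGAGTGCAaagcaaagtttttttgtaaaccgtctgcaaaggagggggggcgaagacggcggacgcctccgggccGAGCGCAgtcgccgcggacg
Mt1 held 3 matches, at -23 to -17, 3 to 9 and 21 to 27 from the start given in the promoter table. Whether transcription of Mt1 begins at that start in these cells was not tested, and bases more than 50 past it were not searched. Mt2 held 4, at -223 to -217 and -128 to -122 on the gene's strand and at -50 to -44 and 5 to 11 on the other strand. Slc30a1 held 2, both on the other strand, at -43 to -37 and 31 to 37. No match lay in the window of Mtf1 or in either of the 2 windows of Slc39a10. The windows do not all sit at the counted starts. The Slc39a10 windows, chr1:46925727-46926026 (-) and chr1:46853569-46853868 (-), lie outside and inside the counted gene (46807544 to 46892852), neither at its start. The Mtf1 window, chr4:124802299-124802598 (+), begins inside the counted gene, which starts at 124802104. The Mt2 window ends at 94172667, just past the counted start of 94172664. The counted starts of Slc39a10 and Mtf1 were thus not searched. Of 32851 mouse promoter windows of this length, 25.7% held at least 1 match, 7.11% at least 2, 1.97% at least 3 and 0.517% at least 4. These are mouse sequences, and a match is a run of letters and not a shown binding site.

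Mt1 was the most abundant of the 7 genes in all groups. It lies on chromosome 8 at 94179082 to 94180327 on the plus strand (GRCm38), and its counted length of 1246 bases equals its whole span, so that its introns were counted as exonic. Its FPKM was 41.0, 38.0 and 46.6 in Unt, 96.8, 126.9 and 117.4 in DOX, 91.0, 114.0 and 115.9 in D_DXZ, and 48.7, 46.9 and 47.0 in D_MgHCF. All DOX and D_DXZ libraries lay above all Unt and D_MgHCF libraries, and the D_MgHCF libraries lay just above the highest Unt library. The means were 41.8 ± 4.36 (SD, n = 3) in Unt, 114 ± 15.4 in DOX, 107 ± 13.9 in D_DXZ and 47.5 ± 1.03 in D_MgHCF. Mt1 therefore rose 2.72-fold in DOX (log2 fold change of FPKM + 1 of 1.42 ± 0.13, SE; limma, adjusted p = 1.8e-05) and 2.56-fold in D_DXZ (log2 fold change 1.33, adjusted p = 7.1e-05). With MgHCF added to DOX it was lower than in DOX by 1.23 on the log2 scale (log2 fold change -1.23, limma adjusted p = 3.1e-05), and the difference from Unt was 0.18 (95% confidence interval -0.10 to 0.47, adjusted p = 0.28). DOX and D_DXZ overlapped, with a difference of -0.087 (interval -0.37 to 0.20).

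The size of the Mt1 change depended on the scaling. As reads per 1000000 reads on genes, Mt1 lay between 64.0 and 76.6 in Unt, 76.7 and 83.7 in D_MgHCF, 94.5 and 106.4 in DOX, and 101.1 and 107.8 in D_DXZ, so that DOX and D_DXZ were again above Unt and D_MgHCF. With FPKM scaled to the summed reads, the DOX against Unt change was 0.48 and still called, but with TPM (each library's FPKM scaled to the same sum) it was 0.070 (limma adjusted p = 0.68) and with quantile normalization 0.20 (adjusted p = 0.075). These scalings also moved the other genes: the median change of genes with a mean FPKM of at least 1 was 0.024 in the deposited scale, -1.01 with TPM, -0.68 with summed reads and 0.020 with quantile normalization. Relative to this median, Mt1 was higher in DOX by 1.39, 1.08, 1.15 and 0.18 in the same order. For D_MgHCF against DOX, the change of Mt1 was -0.030 with TPM and -0.059 with quantile normalization, neither called. Relative to the medians it was -0.90 and -0.016, against -1.21 in the deposited scale. The same change was called with summed reads (-0.28, limma adjusted p = 0.015) and with voom on the recovered reads (-1.24, adjusted p = 7.6e-06). Relative to the medians these were -0.95 and -1.19. In DOX against Unt, voom gave 1.31 for Mt1, also called (adjusted p = 5.8e-06).

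Mt2 followed the same order at a far lower level. Its position is chromosome 8 at 94172664 to 94173568, also on the plus strand, with 588 exonic bases. Its FPKM was 0.270, 0.284 and 0.278 in Unt, 1.57, 2.92 and 1.62 in DOX, 1.26, 2.21 and 1.40 in D_DXZ, and 1.46, 0.601 and 0.0693 in D_MgHCF. These values stood on 4 reads in each Unt library, 14, 22 and 11 reads in DOX, 12, 17 and 11 in D_DXZ, and 18, 9 and 1 in D_MgHCF. The Unt libraries were close together and below all DOX and D_DXZ libraries, whereas the D_MgHCF libraries spread from below Unt into the range of D_DXZ. Mt2 rose in DOX (ratio of means 7.33, log2 fold change 1.22 ± 0.29, SE; limma adjusted p = 0.0057) and in D_DXZ (ratio 5.85, log2 fold change 1.02, adjusted p = 0.018).

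The Mt2 calls depended on the scaling as well. In DOX against Unt the change was 0.66 with TPM (limma adjusted p = 0.11) and 0.79 with summed reads (0.055), neither called, and 1.38 with quantile normalization and 2.57 with voom, both called. In D_DXZ against Unt it was 0.58 with TPM (0.16) and 0.72 with summed reads (0.083). Relative to the median change, Mt2 was higher in DOX in the deposited scale and in the other FPKM scalings, by 1.67 with TPM, 1.47 with summed reads and 1.36 with quantile normalization.

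For Mt2, D_MgHCF was lower than DOX in all 3 libraries (log2 fold change -0.88, limma adjusted p = 0.025), but this call was lost without DOX replicate 2 (adjusted p = 0.095), D_MgHCF replicate 2 (0.062) or D_MgHCF replicate 3, which also moved the change to -0.58 (0.067). It was also lost with TPM (-0.32, adjusted p = 0.38), summed reads (-0.41, 0.26) and a fit of the 2 groups alone (0.11), while relative to the median change it was -0.86 as deposited, -1.19 with TPM, -1.08 with summed reads and -1.28 with quantile normalization. The call of D_DXZ against Unt was lost without Unt replicate 1 (adjusted p = 0.051), Unt replicate 2 (0.05003) or D_DXZ replicate 2 (0.071). At 1 to 22 reads a library, a difference between Mt2 in D_MgHCF and in Unt was not detectable at this depth (0.34, interval -0.30 to 0.97). An antisense gene, Gm45774, shares 212 transcribed bases with Mt2. It was at 0.786, 0.545 and 0.413 FPKM in D_MgHCF and at 0.175 or less in every other library. The sources used here name no strand setting, so that reads of the overlap cannot be told apart. The part of Gm45774 in the Mt2 values was not tested. The other metallothioneins, Mt3 and Mt4, were at 0 in all libraries except for 0.0447 FPKM of Mt3 in D_MgHCF replicate 1 and 0.0987 FPKM of Mt4 in D_MgHCF replicate 2.

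**Figure D1:**
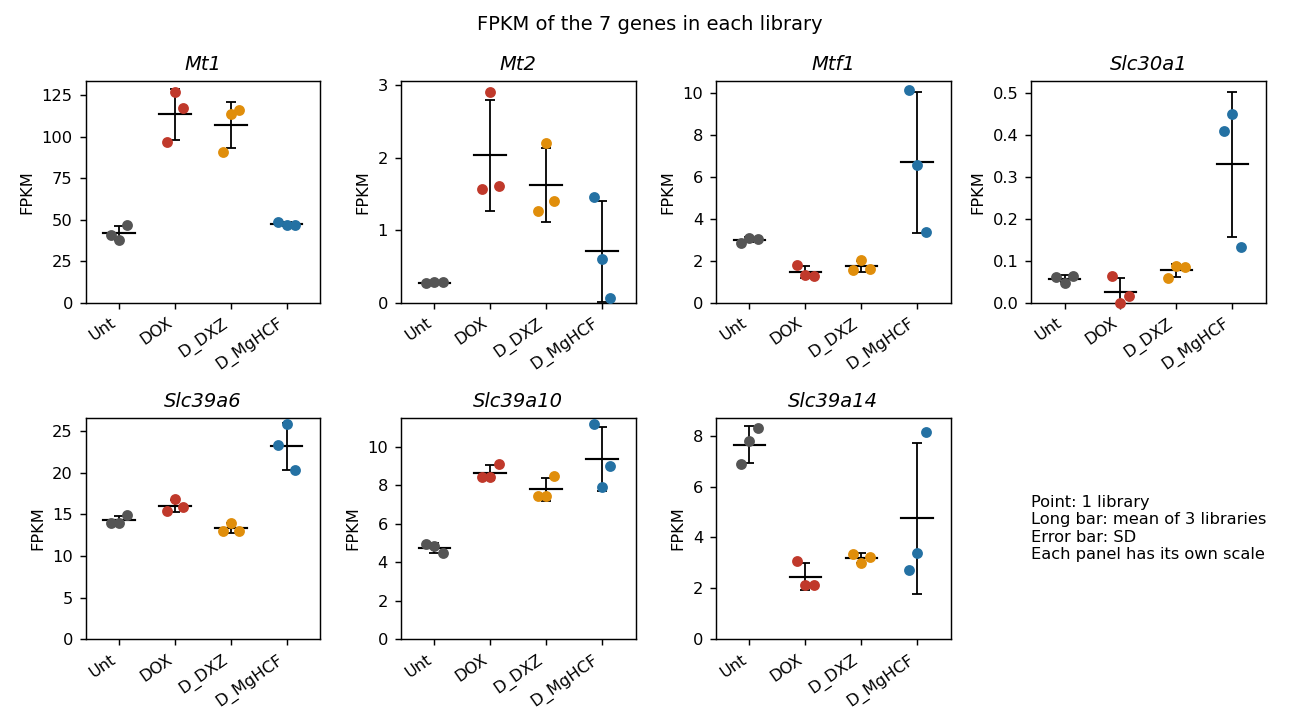
FPKM of each of the 7 genes (vertical axes, linear and separate for each gene) in the 3 libraries of Unt, DOX, D_DXZ and D_MgHCF; points are libraries, long bars are means and error bars SD. Mt1 sits between 91.0 and 126.9 in DOX and D_DXZ and between 38.0 and 48.7 in Unt and D_MgHCF, whereas Mtf1, Slc30a1 and Slc39a6 are highest in D_MgHCF.

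Mtf1 was lowest in DOX and highest in D_MgHCF. The gene spans chromosome 4 from 124802104 to 124849800 on the plus strand, with 8907 exonic bases. Its FPKM was 2.86, 3.09 and 3.04 in Unt, 1.79, 1.30 and 1.27 in DOX, 1.57, 2.03 and 1.59 in D_DXZ, and 10.1, 6.56 and 3.37 in D_MgHCF. The DOX and D_DXZ libraries were all below the Unt libraries and the D_MgHCF libraries all above them, with D_MgHCF replicate 3 near Unt. The change in DOX was -0.71 ± 0.27 (SE) on the log2 scale with a limma adjusted p of 0.066, which does not pass, and in D_DXZ it was -0.55 (adjusted p = 0.16). Without D_MgHCF replicate 3, which entered the shared estimate of the spread, both passed (adjusted p = 0.0038 and 0.016). The fall in DOX was also called with TPM (-1.65, adjusted p = 0.00021), summed reads (-1.32, 0.0020), voom (-1.17, 0.013), a pseudocount of 0.1 (-1.01, 0.027), a filter of 1 FPKM (0.024) and a fit of DOX and Unt alone (0.0036), but not with quantile normalization (-0.27, 0.58). Relative to the median change it was -0.73 as deposited, -0.63 with TPM, -0.65 with summed reads and -0.29 with quantile normalization. The D_DXZ change was called with TPM (-1.43, adjusted p = 0.00064), summed reads (-1.09, 0.0073), voom (-0.93, 0.040) and a fit of D_DXZ and Unt alone (0.0065).

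In D_MgHCF, Mtf1 was 4.59-fold higher than in DOX (log2 fold change 1.55, limma adjusted p = 0.00086) and 3.86-fold higher than in D_DXZ (1.39, adjusted p = 0.0019). The rise over Unt was 2.23-fold (0.84, adjusted p = 0.033). It was not called when any Unt library, D_MgHCF replicate 1 or D_MgHCF replicate 2 was left out (adjusted p of 0.075 to 0.094), and without D_MgHCF replicate 1 the change was 0.53. Mtf1 shares 721 transcribed bases with 1110065P20Rik on the opposite strand. That gene lay between 5.86 and 7.64 FPKM in Unt, 21.2 and 24.2 in DOX, 17.0 and 21.2 in D_DXZ, and 8.63 and 12.0 in D_MgHCF, an order opposite to that of Mtf1 in Unt, DOX and D_DXZ, and its part in the Mtf1 values was not tested.

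Slc30a1, the plasma membrane zinc exporter, was the least abundant of the 7 genes. Its position is chromosome 1 at 191906767 to 191913247 on the plus strand, with 5244 exonic bases. Its FPKM was 0.0606, 0.0477 and 0.0624 in Unt, 0.0628, 0 and 0.0165 in DOX, 0.0591, 0.0873 and 0.0857 in D_DXZ, and 0.408, 0.449 and 0.132 in D_MgHCF. The reads numbered 8, 6 and 8 in Unt, 5, 0 and 1 in DOX, 5, 6 and 6 in D_DXZ, and 45, 60 and 17 in D_MgHCF; a count of 0 in DOX replicate 2 allows up to 0.0446 FPKM (3 reads, counting error only). All D_MgHCF libraries lay above all others, and Unt, DOX and D_DXZ overlapped. More genes were also detected in D_MgHCF: 23368 to 25456 were above 0 in its libraries and 18530 to 20660 in all others. The part of this wider detection in the Slc30a1 values was not tested. The ratio of mean FPKM was 5.80 against Unt, 12.5 against DOX, which rested on 6 reads in all, and 4.27 against D_DXZ.

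On the log2(FPKM + 1) scale these differences of Slc30a1 were only 0.32, 0.37 and 0.30 because of the pseudocount of 1, and all were called (limma adjusted p = 0.0082, 0.0026 and 0.0094). With the recovered reads, fitted by limma with precision weights (voom), the change against DOX was 3.69. With quantile normalization, the difference of Slc30a1 from Unt (0.11, adjusted p = 0.070) and from D_DXZ (0.074, adjusted p = 0.20) was no longer called, and fits of the 2 groups alone gave adjusted p-values of 0.062 and 0.070. Relative to the median change, D_MgHCF against DOX was 0.39 as deposited and 3.74 with voom, but -0.32 with TPM and -0.18 with summed reads. The pseudocount shrank the change of this low gene more than the medians subtracted from it (0.87 with TPM and 0.67 with summed reads). The negative values therefore cannot show that Slc30a1 rose less than other genes. In DOX and in D_DXZ the difference from Unt was -0.043 (interval -0.21 to 0.13) and 0.028 (interval -0.14 to 0.20). An antisense gene, 1700034H15Rik, shares 469 transcribed bases with Slc30a1. It was at 0.0390, 0.0451 and 0.0534 FPKM in D_MgHCF and at 0.0342 or less in every other library.

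Slc39a6 was the most abundant of the 3 importers named here. The gene spans chromosome 18 from 24579881 to 24603817 on the minus strand, with 4073 exonic bases. Its FPKM was 14.0, 14.0 and 14.9 in Unt, 15.4, 16.8 and 15.8 in DOX, 13.0, 14.0 and 13.1 in D_DXZ, and 23.4, 25.8 and 20.3 in D_MgHCF. The D_MgHCF libraries were above all others and D_DXZ overlapped Unt. Slc39a6 was higher in D_MgHCF than in Unt by 1.62-fold (log2 fold change 0.65 ± 0.09, SE; limma adjusted p = 0.00039), than in DOX by 1.45-fold (0.50, adjusted p = 0.00097) and than in D_DXZ by 1.73-fold (0.74, adjusted p = 9.2e-05), and it was also higher under each of the 4 other scalings. In DOX the difference from Unt was 0.15 (adjusted p = 0.23), and it was -1.13 with TPM, -0.74 with summed reads and -0.081 with quantile normalization; relative to the median change it was 0.13 as deposited and -0.12, -0.060 and -0.10 in these scalings. The DOX libraries were all above the D_DXZ libraries, with a difference of D_DXZ from DOX of -0.24 (interval -0.44 to -0.044) that passed at an unadjusted p of 0.022 and not after adjustment (0.46).

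Slc39a10 was higher in all 3 treated groups in the deposited scale. It lies on chromosome 1 at 46807544 to 46892852 on the minus strand, with 6095 exonic bases. Its FPKM was 4.93, 4.85 and 4.47 in Unt, 8.42, 8.45 and 9.12 in DOX, 7.45, 7.45 and 8.48 in D_DXZ, and 11.2, 7.93 and 8.99 in D_MgHCF. All treated libraries lay above the Unt libraries, and the treated groups overlapped each other on this FPKM scale. It rose 1.82-fold in DOX (log2 fold change 0.75 ± 0.12, SE; limma adjusted p = 0.00038), 1.64-fold in D_DXZ (0.61, adjusted p = 0.0019) and 1.97-fold in D_MgHCF (0.84, adjusted p = 0.00039). For DOX and D_DXZ this direction turned to -0.44 and -0.42 with TPM and to -0.072 and -0.043 with summed reads; relative to the median change Slc39a10 was higher in DOX by 0.58 and 0.60 in these scalings. D_MgHCF differed from DOX by 0.090 (interval -0.16 to 0.35), which was not called in the deposited scale. The same difference was 1.19 with TPM (limma adjusted p = 1.6e-05) and 0.96 with summed reads (adjusted p = 3.4e-05), both called, and relative to the median change it was 0.11 as deposited, 0.32 with TPM and 0.29 with summed reads. As reads per 1000000 reads on genes, Slc39a10 lay between 69.3 and 86.1 in D_MgHCF and between 34.7 and 40.2 in DOX, so that these groups did not overlap on that scale.

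Slc39a14, the importer that also carries iron, fell in DOX and D_DXZ. The gene spans chromosome 14 from 70303469 to 70351425 on the minus strand, with 10550 exonic bases. Its FPKM was 6.87, 7.79 and 8.29 in Unt, 3.09, 2.15 and 2.15 in DOX, 3.34, 2.99 and 3.25 in D_DXZ, and 2.72, 3.40 and 8.13 in D_MgHCF. All DOX and D_DXZ libraries were below all Unt libraries, while in D_MgHCF replicates 1 and 2 lay with DOX and D_DXZ and replicate 3 lay within the Unt range. The mean in DOX was 0.322 of that in Unt (log2 fold change -1.33 ± 0.28, SE; limma adjusted p = 0.0029) and that in D_DXZ 0.417 (-1.04, adjusted p = 0.014). The fall in DOX kept its direction and its call under the 4 other scalings, and with quantile normalization that in D_DXZ missed the threshold (-0.73, adjusted p = 0.10).

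The D_MgHCF value of Slc39a14 rested on replicate 3. With it, the difference from Unt was -0.70 (adjusted p = 0.068); without it, -1.09 and called (adjusted p = 0.00018). The difference of D_MgHCF from D_DXZ likewise went from 0.34 (adjusted p = 0.34) to -0.052. The study lists this gene among its iron and ferroptosis genes, so its change in DOX is not independent of that choice. The same D_MgHCF library had the lowest Mtf1, Mt2 and Slc30a1 of its group, and its share of mitochondrial reads, 1.76%, was the nearest of its group to Unt.

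**Figure D2:**
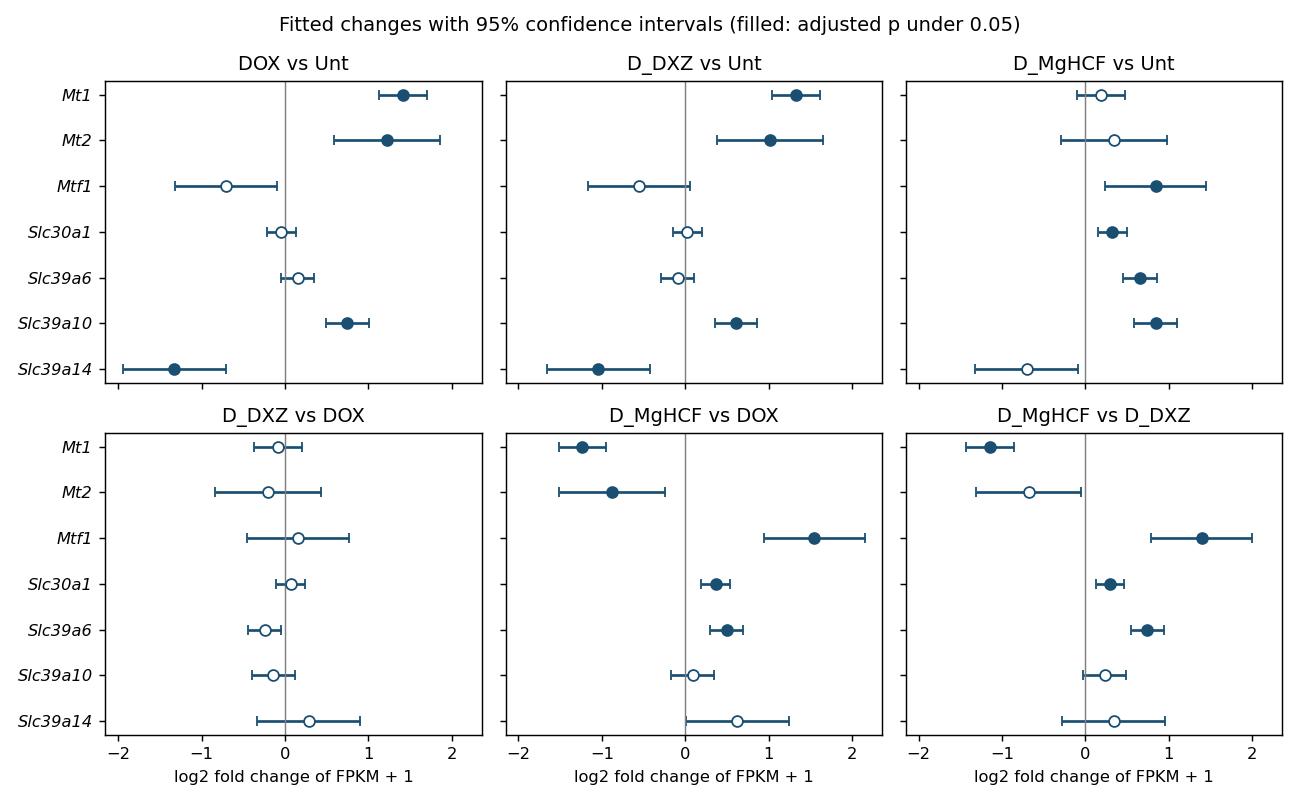
Fitted log2 fold changes of FPKM + 1 (horizontal axes) of the 7 genes (vertical axes) in the 6 comparisons, with 95% confidence intervals; filled points have an adjusted p under 0.05. Mt1 lies at 1.42 for DOX against Unt and at -1.23 for D_MgHCF against DOX, and no point is filled for D_DXZ against DOX.

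Over the 7 genes, 3 rose and 1 fell in DOX against Unt, where 38.4% of the 25044 genes tested were called (18.6% higher and 19.9% lower). The same counts, 3 and 1, were found in D_DXZ against Unt, where 33.9% of genes were called (15.9% higher and 18.0% lower). In D_MgHCF against Unt 4 rose and none fell, with 40.1% of all genes called (24.3% higher and 15.7% lower). These comparisons share the Unt libraries. Between D_DXZ and DOX none of the 7 genes was called, as was none of all genes tested (0%) in the main limma fit and with voom on recovered reads. Some other settings called a few genes, with 4 higher and 2 lower at a pseudocount of 0.1, and 0 and 6 without DOX replicate 1. In the main fit 2388 genes had an unadjusted p under 0.05, among them Slc39a6. In D_MgHCF against DOX, 3 rose (Mtf1, Slc30a1 and Slc39a6) and 2 fell (Mt1 and Mt2), with 51.5% of all genes called (31.4% higher and 20.1% lower). In D_MgHCF against D_DXZ, the same 3 genes were higher and Mt1 was lower, with 48.4% called (29.4% higher and 19.0% lower). With such shares of all genes called, a count of 4 or 5 of 7 does not set these genes apart. The split between higher and lower also depended on the scaling. In DOX against Unt it was 0 higher and 4 lower with TPM, 1 and 3 with summed reads, 2 and 1 with quantile normalization and 3 and 2 with voom on the recovered reads. In D_DXZ against Unt it was 0 and 4 with TPM and 1 and 3 with summed reads. In D_MgHCF against DOX it was 5 and 0 with TPM, 5 and 1 with summed reads, 3 and 1 with quantile normalization and 3 and 2 with voom. In D_MgHCF against D_DXZ it was 5 and 0 with TPM and 5 and 1 with summed reads, and in D_MgHCF against Unt it was 4 and 0 with both. With TPM, 3.66% of all genes were higher and 39.6% lower in D_DXZ against Unt. These shares were 50.5% and 6.14% in D_MgHCF against D_DXZ, and 26.8% and 19.9% in D_MgHCF against Unt. In the same order with summed reads they were 7.64% and 31.7%, 45.6% and 9.51%, and 29.3% and 16.5%.

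With TPM, the calls over all genes for DOX against Unt were 1099 higher and 10034 lower, compared with 4649 and 4973 in the deposited scale, and with summed reads they were 2075 and 8303. For D_MgHCF against DOX they were 13331 and 1679 with TPM and 12376 and 2401 with summed reads, compared with 7863 and 5027. Among the 7 genes, the changes in DOX that were called under all 5 scalings were those of Slc39a14 alone, and in D_MgHCF against DOX those of Mtf1, Slc30a1 and Slc39a6.

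**Figure D3:**
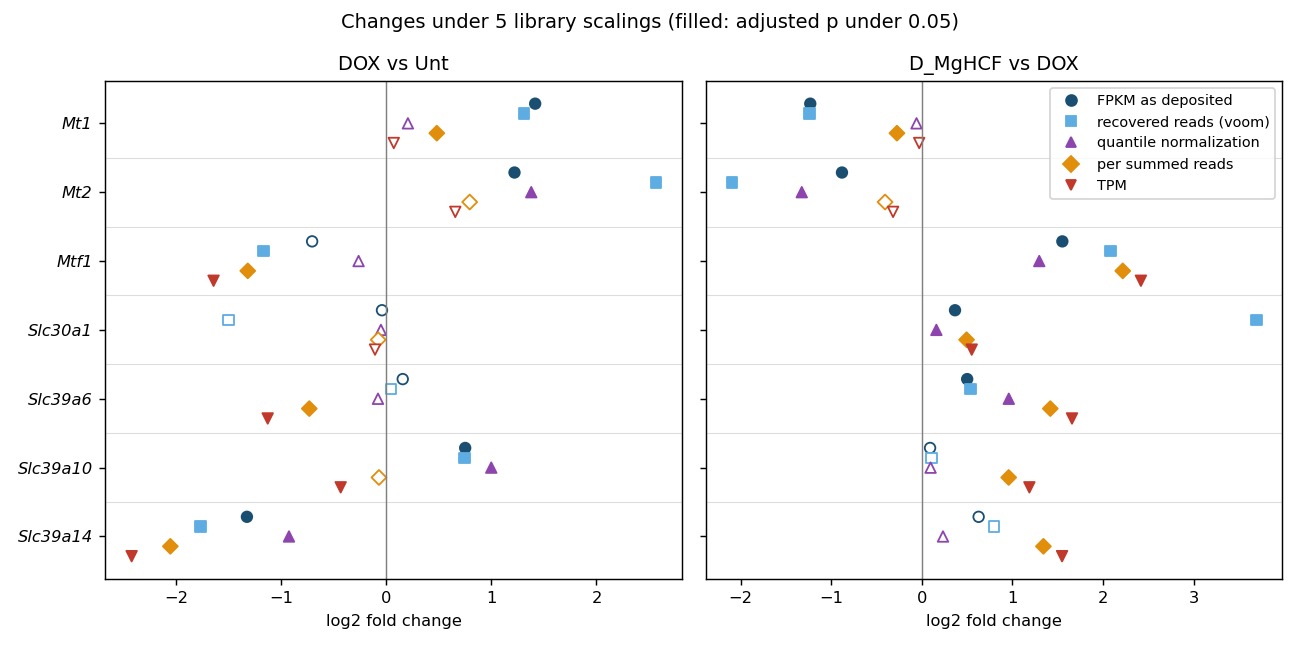
Log2 fold changes (horizontal axes) of the 7 genes for DOX against Unt and D_MgHCF against DOX under 5 library scalings; filled symbols have an adjusted p under 0.05. The change of Mt1 in DOX goes from 1.42 in the deposited FPKM to 0.070 with TPM, whereas Slc39a14 stays between -0.93 and -2.43.

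Ratios of a pair of genes within a library do not depend on a factor common to all genes of that library. The 3 pairs were chosen after their values were seen, so that the ratios are a description. With 20 relabellings, an exact permutation test of the log2 ratios cannot give a p-value under 0.1, even for groups fully apart. These tests gave 0.1 or more in every comparison and are not used here. Mt1 over Mtf1 in FPKM was 14.3, 12.3 and 15.3 in Unt, 54.1, 97.3 and 92.3 in DOX, 57.9, 56.1 and 72.9 in D_DXZ, and 4.82, 7.15 and 13.9 in D_MgHCF. The DOX and D_DXZ libraries were all above Unt and all above D_MgHCF, while D_MgHCF overlapped Unt. Slc39a10 over Slc39a14 was 0.718, 0.622 and 0.538 in Unt, 2.72, 3.93 and 4.25 in DOX, 2.23, 2.49 and 2.61 in D_DXZ, and 4.12, 2.34 and 1.11 in D_MgHCF. All treated libraries lay above Unt. Mt1 over Mt2 was 151, 134 and 167 in Unt, 61.7, 43.5 and 72.6 in DOX, between 51.7 and 82.7 in D_DXZ, and 33.4, 78.0 and 678 in D_MgHCF. The Unt ratios stood on 4 Mt2 reads each and the highest D_MgHCF ratio, of replicate 3, on 1 read, and the D_MgHCF libraries spanned the range of all others.

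**Figure D4:**
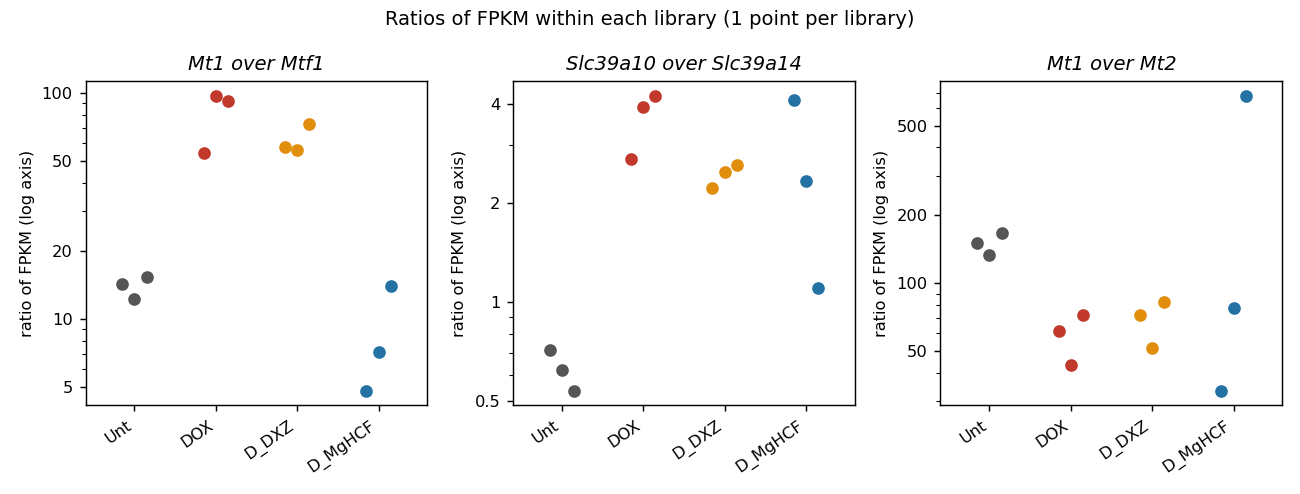
Ratios of FPKM within each library (vertical axes, logarithmic) for Mt1 over Mtf1, Slc39a10 over Slc39a14 and Mt1 over Mt2 in the 4 groups; each point is 1 library. Mt1 over Mtf1 is 54.1 to 97.3 in DOX and 4.82 to 13.9 in D_MgHCF, and Slc39a10 over Slc39a14 is at most 0.718 in Unt and at least 1.11 elsewhere.

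The other zinc transporters were called in both directions in the deposited scale. Of the 10 genes of the ZnT family, most of which are known to move zinc out of the cytosol, 8 were tested. Slc30a4 and Slc30a10 were at 0.0326 FPKM or less. In DOX 1 rose and 3 fell (median log2 fold change -0.096, against 0 for all genes), and in D_MgHCF against DOX 3 rose and 1 fell (median 0.25, against 0.066). Of all genes, 18.6% were higher and 19.9% lower in DOX, and 31.4% and 20.1% in D_MgHCF against DOX. With TPM these counts of the ZnT family were 0 higher and 3 lower in DOX, and 6 higher and 0 lower in D_MgHCF against DOX, where 4.39% and 40.1% of all genes, and then 53.2% and 6.70%, were higher and lower. Slc30a6, which works with Slc30a5 to load zinc in the secretory pathway, went from 10.8 FPKM on average in Unt to 2.84 in DOX (log2 fold change -1.62, limma adjusted p = 8.7e-05), and it was at 4.07 in D_DXZ and 3.32 in D_MgHCF, both also called against Unt. Slc30a5 was lower in the same 3 comparisons with Unt, by 0.50, 0.41 and 0.55 in size (adjusted p = 0.012, 0.036 and 0.0089), although the change in DOX was not called with quantile normalization. Slc30a9, a mitochondrial zinc transporter, went from 6.26 in Unt to 14.4 in DOX and 13.0 in D_DXZ and was at 5.54 in D_MgHCF. Its change was 1.08 in DOX (adjusted p = 2.8e-05) and -1.23 in D_MgHCF against DOX (adjusted p = 1.2e-05); the former was -0.16 with TPM. Slc30a7, a transporter of the Golgi, was at 3.97, 2.23, 2.60 and 4.27 FPKM in Unt, DOX, D_DXZ and D_MgHCF.

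Of the 14 genes of the ZIP family, 13 were tested, with 4 higher and 3 lower in DOX (median 0.14) and 3 higher and 3 lower in D_MgHCF against DOX (median 0.14), beside 18.6% and 19.9%, and 31.4% and 20.1%, of all genes. With TPM, none was higher and 9 were lower in DOX, beside 4.39% and 40.1% of all genes. In D_MgHCF against DOX 9 were higher and 1 lower with TPM, beside 53.2% and 6.70%. Slc39a1, a ubiquitous importer and the most abundant at 51.8 FPKM in Unt, was at 89.0 in DOX (log2 fold change 0.77, adjusted p = 0.0047), 67.8 in D_DXZ and 28.8 in D_MgHCF (-1.62 against DOX, adjusted p = 3.6e-05); the rise in DOX turned to -0.58 with TPM, -0.47 with quantile normalization and -0.17 with summed reads. Slc39a11 followed the same order, with 8.97 in Unt, 22.9 in DOX, 20.3 in D_DXZ and 4.41 in D_MgHCF, and its fall in D_MgHCF against DOX (-2.21, adjusted p = 3.2e-05) was called under all 5 scalings. Slc39a3 went from 4.83 in Unt to 1.46 in DOX, 2.03 in D_DXZ and 1.45 in D_MgHCF, and it was thus low in all treated groups (log2 fold changes -1.24, -0.94 and -1.27, adjusted p = 0.00012, 0.0010 and 0.00024). Slc39a13, an importer of the secretory pathway, was lower in D_MgHCF than in DOX (-0.83, adjusted p = 0.012).

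**Figure D5:**
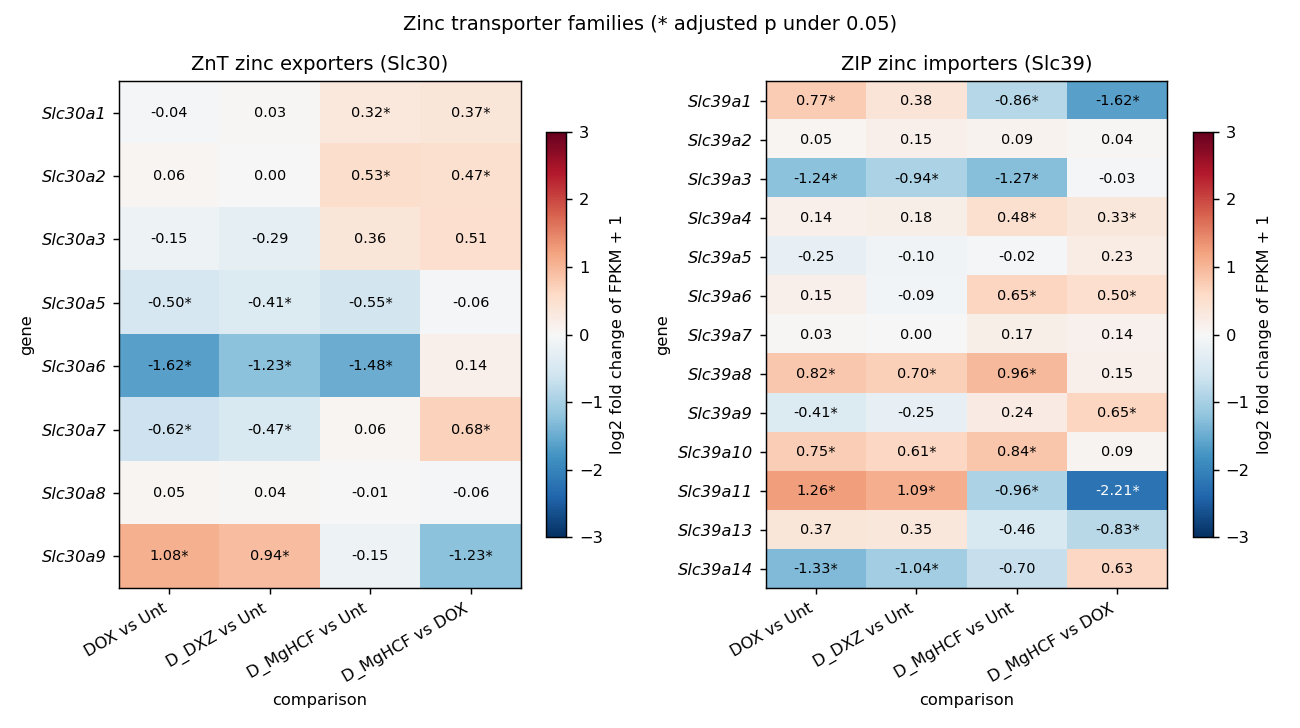
Log2 fold changes of FPKM + 1 (colour and number) of the tested genes of the ZnT and ZIP families (rows) in 4 comparisons (columns); an asterisk marks an adjusted p under 0.05. Slc30a6 and Slc39a3 are lower in DOX, D_DXZ and D_MgHCF than in Unt, and Slc39a11 is at 1.26 in DOX against Unt and -2.21 in D_MgHCF against DOX.

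Of 10 genes known as targets of MTF-1, which include Mt1, Mt2, Slc30a1 and Slc39a10, 5 rose and 1 fell in DOX, and 6 rose and none fell in D_MgHCF against Unt. In D_MgHCF against DOX, 5 rose and 4 fell. The list does not separate genes that MTF-1 raises from genes that it lowers, so these counts do not measure its activity. Of all genes, 18.6% were higher and 19.9% lower in DOX, 24.3% and 15.7% in D_MgHCF against Unt, and 31.4% and 20.1% in D_MgHCF against DOX. With TPM, 1 was higher and 3 were lower in DOX, and 6 were higher and none lower in either D_MgHCF comparison. Of all genes with TPM, 4.39% were higher and 40.1% lower in DOX. The shares were 26.8% and 19.9% in D_MgHCF against Unt, and 53.2% and 6.70% in D_MgHCF against DOX. Csrp1, a LIM domain protein gene, went from 58.2 FPKM in Unt to 262 in DOX, 202 in D_DXZ and 102 in D_MgHCF, with a change in DOX of 2.14 (limma adjusted p = 1.4e-05) that was called under all 5 scalings. Selenow, which encodes a small selenoprotein, had the order of Mt1, at 125, 403, 333 and 143 in Unt, DOX, D_DXZ and D_MgHCF, but its change in DOX of 1.68 became -0.045 with quantile normalization. Gclc, the catalytic subunit for glutathione synthesis, was instead at 12.2, 9.19, 11.2 and 40.6, and it rose in D_MgHCF against Unt (1.59, adjusted p = 0.00091) and against DOX (2.00, adjusted p = 0.00010). Ndrg1 was at 53.3, 36.6 and 8.80 FPKM in the D_MgHCF libraries, compared with 7.68 to 11.2 in all others, and replicate 3 lay within the range of the other groups.

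Of the 13 genes of copper handling, the other metal held by metallothioneins, 12 were tested. In DOX 4 rose and 4 fell, and in D_MgHCF against DOX 2 rose and 2 fell, beside 18.6% higher and 19.9% lower, and 31.4% and 20.1%, of all genes. With TPM, 1 was higher and 8 were lower in DOX, beside 4.39% and 40.1% of all genes. In D_MgHCF against DOX 7 were higher and 1 lower with TPM, beside 53.2% and 6.70%. Atox1, the copper chaperone of the cytosol, was at 97.1 FPKM in Unt, 496 in DOX, 407 in D_DXZ and 267 in D_MgHCF, a change in DOX of 2.34 (adjusted p = 1.1e-05) that was called under all 5 scalings. Slc31a1, the copper importer CTR1, was at 17.5, 19.7 and 18.8 in Unt, DOX and D_DXZ and at 46.6 in D_MgHCF (1.36 against Unt, adjusted p = 1.4e-05). Commd1, which takes part in copper export, was at 1.86, 4.97, 3.97 and 1.57 in Unt, DOX, D_DXZ and D_MgHCF. Sco1, a copper chaperone of mitochondria, was at 4.78, 1.87, 2.20 and 3.32.

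The regulators of the metallothionein genes other than Mtf1 were mostly lower in DOX in the deposited scale. Of the 9 genes of this list, Mtf1 included, 5 fell and 1 rose in DOX, and 6 rose and 1 fell in D_MgHCF against DOX (median log2 fold changes -1.12 and 1.05), where 19.9% of all genes were lower in DOX and 31.4% higher in D_MgHCF against DOX. With TPM, 8 were lower and none higher in DOX, and 8 were higher and none lower in D_MgHCF against DOX, beside 40.1% of all genes lower and 53.2% higher. Usf1, a factor that binds the Mt1 promoter, went from 15.8 FPKM in Unt to 2.60 in DOX and 4.33 in D_DXZ and was at 12.3 in D_MgHCF. Sp1, a general activator at such promoters, was at 22.8, 5.80, 7.34 and 16.6, and Ep300, a coactivator, at 9.78, 2.11, 3.59 and 5.80. Nr3c1, the glucocorticoid receptor, was at 8.55 in Unt, 2.71 in DOX, 3.43 in D_DXZ and 6.70 in D_MgHCF. The changes of these 4 genes were called in DOX and in D_MgHCF against DOX, with the same signs under all 5 scalings.

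Glucocorticoids are known inducers of metallothionein genes, and 7 of 8 genes that respond to them were tested. In DOX 4 fell and none rose, with 19.9% of all genes lower. With TPM 6 were lower in DOX, beside 40.1% of all genes. In D_MgHCF against DOX all 7 rose (median 1.12, against 0.066 for all genes), with 31.4% of all genes higher. All 7 were also higher with TPM, summed reads and the recovered reads, beside 53.2%, 49.4% and 29.3% of all genes. With quantile normalization 5 were higher, beside 18.5%. Dusp1, a phosphatase gene, was at 3.39, 1.72, 0.902 and 14.7 FPKM in Unt, DOX, D_DXZ and D_MgHCF, Klf9 at 6.56, 3.16, 3.23 and 13.3, and Per1, a clock gene, at 4.39, 3.67, 2.50 and 8.96. Sgk1 was at 12.8, 9.68 and 1.96 in the D_MgHCF libraries, and replicate 3 again lay near the Unt libraries.

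The genes whose pattern over the 12 libraries was most like each member, by the root mean square difference of centred log2(FPKM + 1) among 13265 genes (13266 for Slc30a1), were Arpc1a, Rac1 and Psmb3 for Mt1 (0.098, 0.10 and 0.11, against a spread of Mt1 itself of 0.66). For Mt2 they were Slpi, Rpsa-ps9 and Gm1673 (0.12 to 0.15, against 0.58), for Mtf1 Tle4 and Inpp4a and a gene without a symbol (0.089 to 0.11, against 0.67), and for Slc30a1 Lifr, Cenpu and Fam161b (0.079 to 0.093, against 0.17). For Slc39a6 they were Tmem243, Mocs1 and Lrrc28 (0.084 to 0.091, against 0.30), for Slc39a10 Ahcyl2, Lpl and Mboat7 (0.10 to 0.11, against 0.34), and for Slc39a14 Sh2b1, Ago2 and Wwc1 (0.094 to 0.11, against 0.58). Among the members themselves, Slc30a1 and Slc39a6 were nearest (0.18), followed by Slc30a1 and Slc39a10 (0.32), and Mt1 and Mtf1 were farthest apart (1.23). The libraries share their scaling, and these distances describe the 12 libraries only.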

How the data were processed

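The 12 libraries of H9c2 mRNA (4 groups of 3, 6 h) were grouped by their titles. Of 54345 genes the authors deposited FPKM, with mouse identifiers and GRCm38 coordinates. Per the submitters' processing notes, HISAT2 2.0.5 and the builds GRCm38 and mm10 were used; the counting program and annotation release are not given in the sources used here. The product of FPKM and length came out as whole reads for 100% of values (tolerance 0.01), and the authors' scaling equalled a median-ratio factor of these reads (16626514 to 19365119 per library). Limits from reads cover counting error only.

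Fits on log2(FPKM + 1) used limma 3.58.1 (R 4.3.3), with a trended prior, no covariate and all 4 groups together. Genes needed a value above 0 in 3 or more libraries, which left 25044. Calls were made at a Benjamini-Hochberg adjusted p under 0.05 over these genes. The pseudocount makes changes of low genes smaller. The method was tested on simulated data with the same spread in all groups, for DOX against Unt. It recovered 96 of 100 genes planted at a log2 change of 2, but 56 of 100 at a log2 change of 1. Of unchanged genes, 5.43% had an unadjusted limma p under 0.05. The 7 genes and the gene lists were chosen with earlier results of these data known. All 7 genes are named, with at most 4 others per list (the largest absolute change in DOX against Unt or D_MgHCF against DOX among called genes whose higher group averaged 1 FPKM or more) and the 3 nearest patterns per gene; other names are genes at or near 0, overlapping genes and markers. A BLAST 2.17.0 search of GENCODE M21 transcripts (95% identity, 150 bases) found no copies beside the overlapping genes. Alternatives were other pseudocounts, filters, scalings (TPM, quantile, summed reads, voom on recovered reads), thresholds, a replicate block, fits of 2 groups and each library left out.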

Additional observations from a re-analysis of the deposited data

How the results depend on the processing

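Of the 960 alternative values computed, 862 kept their direction and side of the threshold, 42 lost a call, 39 gained one and 17 changed sign. Counts of called genes moved by more than 1.5 times in 5 cases: with a 2-fold minimum to 0 in D_MgHCF against Unt, 2 in D_MgHCF against DOX and 2 in D_MgHCF against D_DXZ, with fits of the 2 groups compared to 2 in D_MgHCF against Unt, and at an unadjusted p under 0.05 to 1 in D_DXZ against DOX. With each library left out in turn, the counts ranged from 4 to 5 in DOX against Unt, 3 to 5 in D_DXZ against Unt, 3 to 5 in D_MgHCF against Unt, 0 in D_DXZ against DOX, 4 to 6 in D_MgHCF against DOX and 4 to 5 in D_MgHCF against D_DXZ. Signs changed in DOX against Unt for Slc39a6 (-1.13 with TPM, -0.74 with summed reads, -0.081 with quantile normalization) and Slc39a10 (-0.44 with TPM, -0.072 with summed reads). They changed in D_DXZ against Unt for Slc30a1 (-0.055 and -0.022) and Slc39a10 (-0.42 and -0.043) with TPM and summed reads. In D_DXZ against DOX they changed for Mt1 (0.088 with TPM, 0.15 with quantile normalization, 0.10 with summed reads, and -0.20 to 0.025 over the libraries left out, the positive value without D_DXZ replicate 1) and Slc39a10 (0.019 with TPM, 0.029 with summed reads). Over the libraries left out, Slc39a10 ranged from -0.032 (without D_MgHCF replicate 1) to 0.19 in D_MgHCF against DOX, and Slc39a14 from -0.052 (without D_MgHCF replicate 3) to 0.60 in D_MgHCF against D_DXZ. The cause was not tested.

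Same-numbered libraries had correlations of their deviations from the group means of -0.31 to 0.31 (2 of 18 over 0.1), so the numbers were not taken to pair the libraries, and a replicate block gave 4, 4, 4, 0, 5 and 4 called genes in the 6 comparisons, equal to the counts without it. The planned quasi-likelihood test of counts was not run, and limma with voom on the recovered reads was used in its place. Depth limits Mt2 and Slc30a1, with at most 22 and 60 reads in a library.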
